A study of Mus musculus with 4 samples.

Results

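The genes described here are 10 transcripts that are abundant in naive or stem-like T cells, chosen by name from 50600 listed genes: Tcf7, Lef1, Foxo1, Foxp1, Bach2, Satb1, Ets1, Klf3, Dapl1 and Igfbp4. They were measured by RNA sequencing in 4 libraries of primary T cells of C57BL/6NJ mice, numbered in the labels as 4 biological replicates of 1 group. Headers of the 4 files described activated bulk material taken at 72 h under the name mmTh0, and the labels linked a protocol named for CD4+ T-cell differentiation. Age and sex were not given, and 1 donor identifier was shared by all libraries, so that the spread between replicates may be partly technical. The libraries held 49613182 to 94222415 counted fragments, with the largest total in replicate 4. No resting or differently treated cells were among the samples, so the values are levels in activated cells and not changes from a naive state.

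Naive T cells are kept quiescent by a set of transcription factors that sustain survival and recirculation genes and hold effector genes in check. Tcf7 and Lef1 encode HMG-box factors that bind the same DNA motif and can recruit beta-catenin or Groucho/TLE corepressors. Foxo1 encodes a forkhead factor that activates homing and survival genes such as Il7r and Klf2 and is sent out of the nucleus by AKT, which receptor signalling activates. In chronically stimulated or memory T cells, TCF1, the product of Tcf7, marks the cells that keep the capacity to self-renew.

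The labelled cell type was checked first. All 13 T-cell identity genes were detected. Here a gene counts as detected when each of the 4 libraries gives it 1 TPM or more, TPM being counts divided by gene length and rescaled to a common sum. The T-cell identity genes summed to 8732 to 9028 TPM per library. Summed markers of other cells lay far lower, at 5.08 to 6.59 TPM over 8 B-cell genes, 13.1 to 16.3 over 8 myeloid genes, 6.02 to 6.79 over 5 immature thymocyte genes, 26.5 to 28.8 over 6 stromal and endothelial genes and 0.122 to 0.480 over 5 erythroid genes. The 6 CD8 and natural killer genes summed to 15.3 to 21.6 TPM, most of it from Cd8b1, while Cd8a had 8 to 19 counts per library. The recombinase gene Rag2, the collagen gene Col3a1 and the endothelial cadherin gene Cdh5 had 0 counts throughout, and the macrophage gene Lyz2 had 1 count in replicate 3 alone. Other genes of these lists were detected. They were Pecam1 and Pdgfrb (stromal and endothelial, 23.2 ± 0.862 and 3.30 ± 0.191 TPM) and Cd68 and Adgre1 (myeloid, 10.5 ± 0.880 and 3.21 ± 0.525 TPM). Cd1d1 (immature thymocyte, 6.40 ± 0.331 TPM) and Cd79b and Ebf1 (B cell, 2.55 ± 0.850 and 1.48 ± 0.221 TPM) were also detected. All 6 genes of the regulatory T-cell list were detected, a list that shares Il2ra, Ctla4 and Tnfrsf18 with activated T cells. Its defining gene Foxp3 stood at 2.74 ± 0.948 TPM (SD, n = 4).

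All 10 genes were detected in every library, against 49.4% of 21764 protein-coding genes. The median of their mean levels was 77.8 TPM, against 34.8 TPM over the 10754 detected protein-coding genes, and 8 of the 10 lay above that value. In bulk RNA, fewer cells expressing a gene and less RNA of it per cell cannot be told apart. Counting error was small beside the spread between libraries, at most 4.39% for the least counted value, Igfbp4 in replicate 3.

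**Figure D1:**
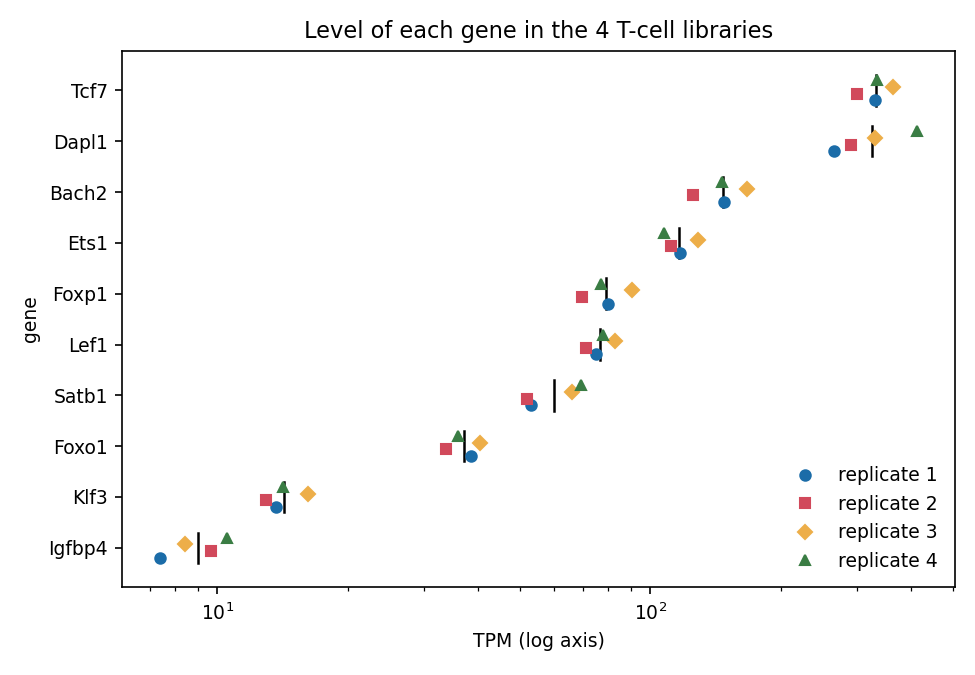
TPM on a log axis of each gene in replicates 1 to 4 (points), with the mean as a bar. Levels run from 9.01 TPM for Igfbp4 to 332 TPM for Tcf7, and the points of Dapl1 spread from 266 to 412 TPM.

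Tcf7, which encodes TCF1 (ENSMUSG00000000782, mm10, chromosome 11, 52252371 to 52283014, minus strand), was the most abundant of the 10. The libraries of replicates 1 to 4 gave 331, 301, 364 and 333 TPM, a mean of 332 ± 25.9 (SD, n = 4), above 95.6% of detected protein-coding genes. The 4 libraries lay close together, the highest 1.21 times the lowest. Its partner Lef1 (chromosome 3, 131110471 to 131224356, plus strand) stood at 74.8, 70.9, 82.7 and 77.8 TPM, a mean of 76.6 ± 4.97 (SD, n = 4). Lef1 had the smallest relative spread of the 10, with an SD of 6.49% of its mean. Within each library Tcf7 was 4.24 to 4.42 times Lef1 by TPM, so the ratio of these 2 factors was nearly constant.

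The other factors of the family were almost silent. Tcf7l1 stood at 0.524 ± 0.114 TPM and Tcf7l2 at 0.135 ± 0.0460 TPM (SD, n = 4), the latter from 13 to 46 counts per library. Tcf7 exceeded Tcf7l2 by 8.19 ± 0.15 (SD, n = 4) in log2(TPM + 1), a difference that the pseudocount of 1 understates. Of 19 genes for beta-catenin and TCF cofactors, 16 were detected, led by Ctnnb1, which encodes beta-catenin (263 ± 18.2 TPM), the kinase gene Gsk3a (236 ± 12.6 TPM) and Tle5, listed under its older symbol Aes (189 ± 19.1 TPM). The 3 not detected were Tle2, Tle6 and Pygo1. The corepressor genes Tle3 and Tle4 stood at 93.1 ± 9.28 and 45.6 ± 4.20 TPM (SD, n = 4).

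Foxo1 (ENSMUSG00000044167, chromosome 3, 52268336 to 52353221, plus strand) stood at 38.4, 33.7, 40.3 and 36.0 TPM in replicates 1 to 4, a mean of 37.1 ± 2.90 (SD, n = 4). This is near the middle of the detected genes, above 52.0% of them. Its relative Foxo3, also an AKT target, was higher in 4 of 4 libraries at 62.8 ± 6.25 TPM, a log2(TPM + 1) difference of Foxo1 minus Foxo3 of -0.74 ± 0.07 (SD, n = 4). Foxo4 stood at 27.5 ± 2.31 TPM, and Foxo6 had 0 to 2 counts per library. Of 10 genes that control FOXO proteins, 9 were detected, led by the kinase gene Akt1 (251 ± 17.8 TPM), the ubiquitin ligase gene Mdm2 (136 ± 5.66 TPM) and the deubiquitinase gene Usp7 (114 ± 11.6 TPM). The kinase gene Sgk1, at 1.08, 1.06, 1.17 and 0.712 TPM, fell below 1 in replicate 4 alone.

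The 8 genes listed as FOXO1 targets were all detected, at very different levels. For the lymph-node homing receptor gene Ccr7, replicates 1 to 4 gave 721, 822, 882 and 1057 TPM. The factor gene Klf2 stood at 7.85 ± 1.10 TPM and the IL-7 receptor gene Il7r at 20.6 ± 0.713 TPM (SD, n = 4). The apoptosis gene Bcl2l11 stood at 65.4 ± 5.94 and the cell-cycle inhibitor gene Cdkn1b at 30.1 ± 0.899 TPM. Ccr7 was thus high beside low Klf2 in each of the 4 libraries.

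Foxp1 (ENSMUSG00000030067, chromosome 6, 98925338 to 99522721, minus strand) encodes a forkhead repressor that maintains T-cell quiescence. Replicates 1 to 4 gave 79.7, 69.5, 90.5 and 76.7 TPM, a mean of 79.1 ± 8.72 (SD, n = 4), lowest in replicate 2 and highest in replicate 3. Foxp1 exceeded Foxo1 in 4 of 4 libraries, by 1.07 ± 0.06 on the log2(TPM + 1) scale. It was exceeded in turn by its relative Foxp4, at 208 ± 17.0 TPM, with a difference of Foxp1 minus Foxp4 of -1.39 ± 0.07 (SD, n = 4). Foxp2 and Foxp3 stood at 3.84 ± 0.599 and 2.74 ± 0.948 TPM.

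Bach2 (ENSMUSG00000040270, chromosome 4, 32238804 to 32586108, plus strand) encodes a repressor that competes with AP-1 factors and restrains effector differentiation. Its level was 148, 125, 167 and 146 TPM in replicates 1 to 4, a mean of 147 ± 17.1 (SD, n = 4). Replicate 2 was the lowest and replicate 3 the highest, as for Foxp1. Its relative Bach1 stood at 2.32 ± 0.363 TPM, so that Bach2 was 58.6 to 67.7 times Bach1 by TPM within libraries. The small MAF genes, whose products pair with BACH proteins to bind DNA, stood at 40.8 ± 4.26 (Mafg), 37.7 ± 1.72 (Mafk) and 9.90 ± 0.787 TPM (Maff). Prdm1, the gene for BLIMP1 and a known target of BACH2 repression, had 0, 4, 4 and 7 counts in replicates 1 to 4.

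Satb1 (ENSMUSG00000023927, chromosome 17, 51736187 to 51833290, minus strand) encodes a chromatin organiser of the T lineage. Replicates 1 to 4 gave 52.8, 51.9, 66.0 and 69.3 TPM, a mean of 60.0 ± 8.90 (SD, n = 4). Replicates 1 and 2 were the lower libraries and replicates 3 and 4 the higher. The spread did not pass the test across all genes described below (edgeR, adjusted p = 0.714).

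Ets1 (ENSMUSG00000032035, chromosome 9, 32636221 to 32757820, plus strand) encodes the founding member of the ETS family and is a factor of resting lymphocytes. Its level was 117, 112, 129 and 107 TPM in replicates 1 to 4, a mean of 116 ± 9.39 (SD, n = 4), and was the only one of the 10 with its lowest value in replicate 4. Of 15 ETS genes 14 were detected. Elk3 (140.3 ± 8.79 TPM) and Elf1 (114 ± 6.79 TPM) were at levels like that of Ets1, and Spi1, the myeloid and B-cell member, had 0 counts in all libraries. Ets1 exceeded Ets2 by 1.42 ± 0.18 and Fli1 by 2.62 ± 0.07 (SD, n = 4) in log2(TPM + 1), in each of the 4 libraries.

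Klf3 (ENSMUSG00000029178, chromosome 5, 64803388 to 64832901, plus strand) encodes a repressor that binds CACCC boxes through zinc fingers. Replicates 1 to 4 gave 13.7, 12.9, 16.2 and 14.2 TPM, a mean of 14.3 ± 1.398 (SD, n = 4), below most detected genes and above only 27.5% of them. Of 17 KLF genes 12 were detected, and Klf3 was well below Klf6 (169 ± 6.11 TPM), Klf16 (92.9 ± 2.74 TPM) and Klf13 (49.9 ± 5.62 TPM). Klf3 minus Klf13 was -1.74 ± 0.04 and Klf3 minus Klf2 was 0.79 ± 0.26 (SD, n = 4) in log2(TPM + 1), with 1 sign in each of the 4 libraries. The 5 KLF genes not detected were Klf1, Klf5, Klf14, Klf15 and Klf17.

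Igfbp4 (ENSMUSG00000017493, chromosome 11, 99041244 to 99054392, plus strand) encodes a secreted protein that binds insulin-like growth factors, and its transcript marks naive CD4 T cells. It was the least abundant of the 10, at 7.38, 9.69, 8.44 and 10.5 TPM in replicates 1 to 4, a mean of 9.01 ± 1.39 (SD, n = 4). These values rest on 519 to 1294 counts per library. The related gene Igfbp7 stood far higher, at 463 ± 19.2 TPM, a log2(TPM + 1) difference of Igfbp4 minus Igfbp7 of -5.54 ± 0.21 (SD, n = 4). None of the other 5 IGFBP genes was detected. Igfbp2 had a mean of 1.18 ± 0.252 TPM but did not reach 1 in every library, Igfbp6 had 8 counts in replicate 4 alone, and Igfbp1, Igfbp3 and Igfbp5 had 0 counts throughout.

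Dapl1 (ENSMUSG00000026989, chromosome 2, 59484653 to 59505020, plus strand), a short transcript of 679 bases of exon whose product resembles death-associated protein, is often used to mark naive T cells. Its level was 266, 290.0, 330 and 412 TPM in replicates 1 to 4, a mean of 325 ± 64.2 (SD, n = 4), from 3031, 3181, 3119 and 7779 counts. Replicate 1 was the lowest and replicate 4 the highest, 1.55 times as high. Its relative Dap varied less, at 145 ± 6.00 TPM, and Dapl1 exceeded it in 4 of 4 libraries by 1.14 ± 0.22 (SD, n = 4) in log2(TPM + 1).

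**Figure D2:**
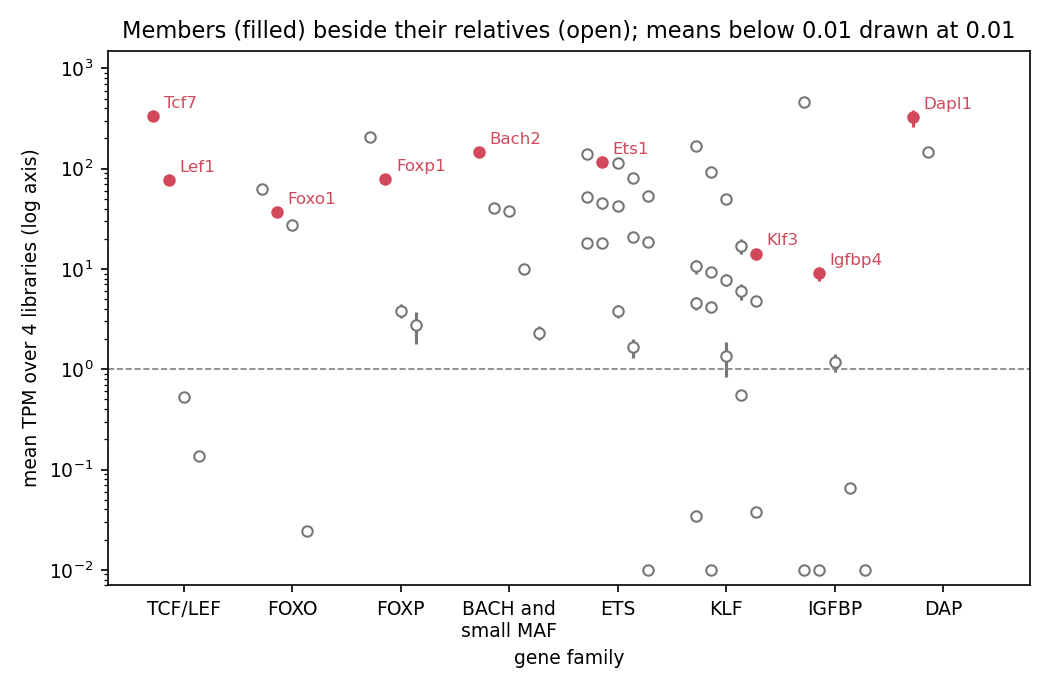
Mean TPM (log axis, bars SD over 4 libraries where the mean is above 1) of 9 members (filled, without Satb1) and their relatives (open) by gene family. Means under 0.01 are drawn at 0.01. Tcf7 and Lef1 stand far above Tcf7l1 and Tcf7l2, and Bach2 above Bach1. Foxo1, Foxp1, Ets1, Klf3 and Igfbp4 each lie below at least 1 relative.

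Ordered by mean TPM, the genes ran Tcf7, Dapl1, Bach2, Ets1, Foxp1, Lef1, Satb1, Foxo1, Klf3 and Igfbp4. Of the 9 neighbouring pairs in that order, 7 kept the order in every library and 3 had overlapping ranges. Tcf7 and Dapl1 did not differ beyond their spread, with a difference of 0.05 ± 0.26 on the log2(TPM + 1) scale and Tcf7 higher in 3 of 4 libraries (exact two-sided sign-flip p = 0.625). Nor did Foxp1 and Lef1, at 0.04 ± 0.08 with Foxp1 higher in 2 of 4 libraries (exact sign-flip p = 0.5). Bach2 and Ets1 overlapped in range, though Bach2 was higher within each of the 4 libraries, by 0.33 ± 0.12. With 4 libraries the smallest p of this test is 2 of 16 sign patterns, so none of the 9 neighbours or the 16 gene pairs could pass 0.05. Each of the 16 pairs had 1 sign in 4 of 4 libraries.

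The order in the middle of the list depended on the gene length used. TPM here divides by all annotated exon bases of a gene, which for Satb1 is 19027 bases against 6243 in its longest principal transcript in GENCODE release 21. With principal transcript lengths, chosen after seeing the data, Satb1 stood at 128 ± 19.3 TPM, Lef1 at 135 ± 9.27 and Ets1 at 136 ± 11.4, all above Bach2 at 115 ± 13.8 (SD, n = 4). Tcf7 then stood at 247 ± 20.2 TPM, below Dapl1 at 269 ± 53.5. TPM is rescaled to a common sum, so a value also moves with the lengths of all other genes. Foxo1, of 8665 bases under both lengths, went from 37.1 to 26.0 TPM. Bach2 and Tcf7 likewise fell, although their principal transcripts (8882 and 2471 bases) are shorter than all their exons (9940 and 2625 bases). The difference of Tcf7 minus Lef1 was 2.10 with all exons and 0.86 with the principal transcripts on the log2(TPM + 1) scale, that of Klf3 minus Klf2 0.79 and 1.80, that of Klf3 minus Klf13 -1.74 and -0.90, and that of Foxo1 minus Foxp1 -1.07 and -2.02. Ets1 minus Fli1 moved from 2.62 to 3.25. All 16 pairs kept their sign. Foxo1, Klf3 and Igfbp4 were the 3 lowest under both lengths.

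**Figure D3:**
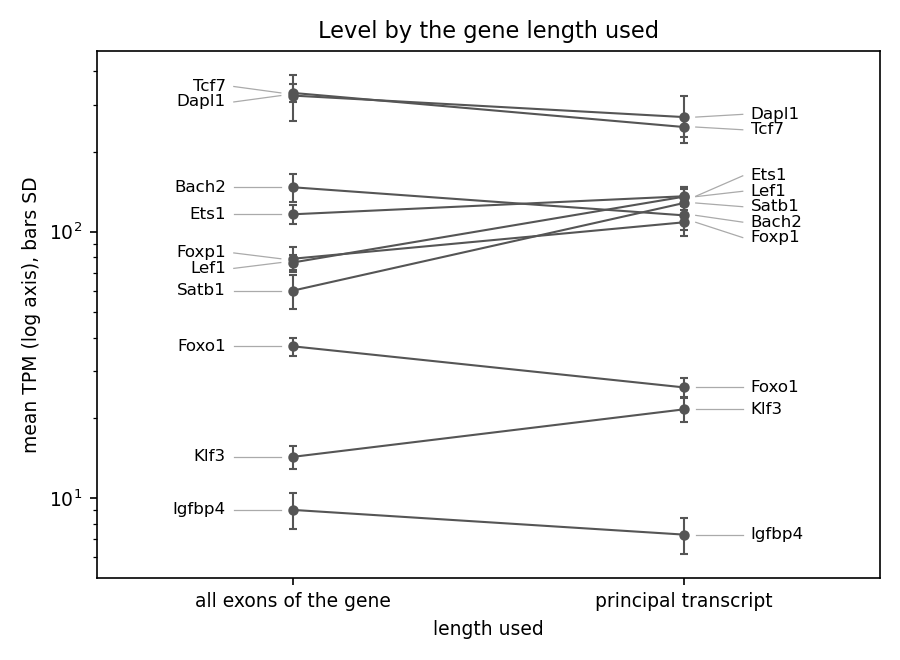
Mean TPM (log axis, bars SD over 4 libraries) of each gene with the length of all its exons and with the length of its longest principal transcript. Satb1 moves from 60.0 to 128 TPM and Bach2 from 147 to 115 TPM, while Igfbp4 is the lowest on both sides. Values also move with the lengths of all other genes, because TPM is rescaled to a common sum.

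Which of the 10 differed between libraries by more than genes of like abundance was asked with edgeR, in 1 fit over 13681 genes on counts scaled by TMM factors. Dapl1 was called (adjusted p = 0.0317) and the other 9 were not, 1 of 10 against a background of 0.687% of all genes tested. At an unadjusted p under 0.05 the count was also 1, against 7.01% of all genes tested, a share near that background. Satb1 and Igfbp4 came next, with unadjusted p of 0.0502 and 0.0735 (edgeR, adjusted p = 0.714 and 0.823). For the other 7 the edgeR adjusted p was 0.9999. The median SD of log2 CPM (counts scaled to a common library size with TMM factors) over libraries was 0.107 for the 10 genes and 0.128 over all genes tested. By the same measure the spread of Lef1 (0.063), Foxo1 (0.064), Tcf7 (0.072) and Ets1 (0.079) was the smallest of the 10, and 7 of the 10 lay below that median. The median over all genes tested was not matched to the members for abundance or gene length.

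**Figure D4:**
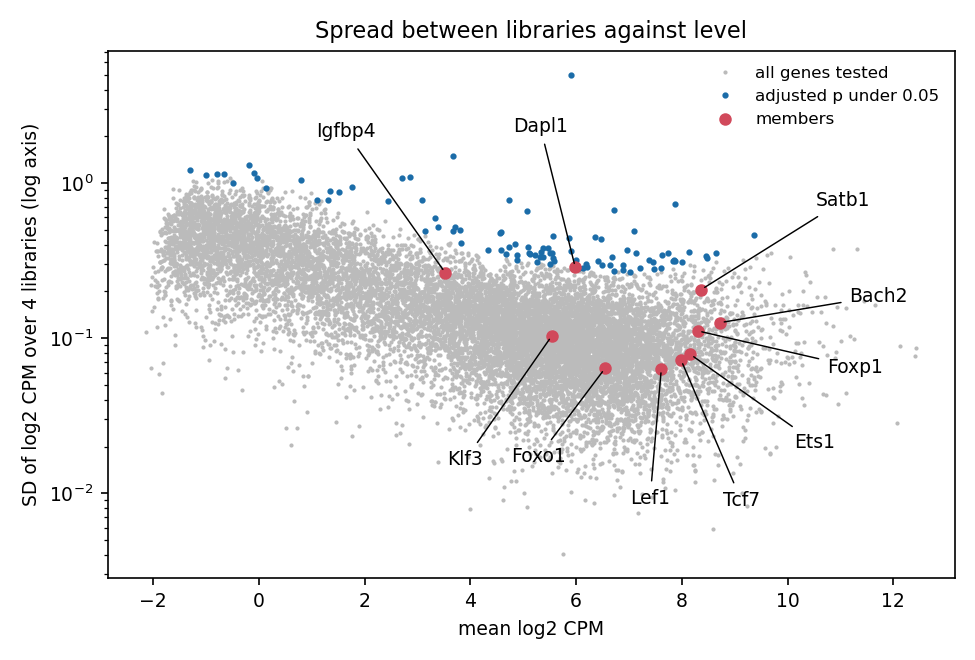
SD of log2 CPM over the 4 libraries (log axis) against mean log2 CPM for every gene tested (grey), the genes called at an adjusted p under 0.05 (blue) and the 10 members (red). Dapl1, with an SD of 0.286, lies among the called genes, and Lef1, Foxo1, Tcf7 and Ets1 lie within the grey cloud.

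The call for Dapl1 rested on the libraries at its extremes. Without replicate 4, which was also the most deeply counted library, the edgeR adjusted p was 0.9998, and without replicate 1 it was 0.384. Without replicates 2 and 3 in turn it was 0.00953 and 0.00537. The call was also lost with no filter on low counts (edgeR, adjusted p = 0.108) and with a common dispersion (adjusted p = 0.216), and DESeq2 did not mark Dapl1 as a dispersion outlier. The mean was 295 TPM without replicate 4 and 344 TPM without replicate 1.

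For 6 of the 10 genes, Tcf7, Lef1, Foxo1, Foxp1, Bach2 and Klf3, TPM was highest in replicate 3 and lowest in replicate 2. The share of all genes with this TPM order was not computed. Csnk1a1, nearly flat in log2 CPM (SD 0.010), had it too, at 189, 176, 191 and 183 TPM in replicates 1 to 4. As a deviation of log2 CPM from its own mean, Lef1 was lowest in replicate 1 (-0.06, against -0.05 in replicate 2). Gene length moved the same way for most of the 6 genes. Among 1654 protein-coding genes of 8000 or more exon bases with a mean TPM of at least 1, the median deviation of log2 CPM from a gene's own mean was 0.04, -0.10, 0.08 and -0.03 in replicates 1 to 4, and 7 of the 10 members are of that length. In replicates 1 to 4 Bach2 deviated by -0.01, -0.16, 0.14 and 0.03, and Foxo1 by 0.03, -0.08, 0.07 and -0.02. Tcf7, of 2625 exon bases, deviated by -0.03, -0.08, 0.08 and 0.03. The medians of its own class, 2585 genes of 1500 to 3000 bases, were -0.03, 0.07, -0.06 and 0.04, of the other sign in replicates 2 and 3. The part of length in these small differences was not tested. Among 894 genes under 1500 bases the medians were -0.03, 0.15, -0.17 and 0.07, each of the other sign than in the longest class.

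Dapl1, the single member under 1500 bases, deviated by -0.30, -0.08, -0.01 and 0.39, below the median of short genes in replicate 2 and above it in replicate 3. With a per-library trend on gene length as an offset, added after seeing the data, the edgeR adjusted p of Dapl1 was 0.000569, and that of Satb1 was 0.128. Satb1, although the longest of the 10, deviated by -0.20, -0.14, 0.10 and 0.24. Igfbp4 deviated by -0.30, 0.17, -0.13 and 0.26, low in replicate 1 and high in replicate 4 like Dapl1 and Satb1. Sums over related genes followed Dapl1 in being lowest in replicate 1 and highest in replicate 4. The 16 other naive and stem-like genes summed to 1834, 1959, 2040.03 and 2285 TPM in replicates 1 to 4. The 8 FOXO1 targets summed to 875, 973, 1049.9 and 1213 TPM. Both sums include Ccr7, which alone stood at 721, 822, 882 and 1057 TPM, most of the FOXO1 target sum. Of the other FOXO1 targets, S1pr1 alone was lowest in replicate 1 and highest in replicate 4. Of the summed marker lists, those of T-cell identity (8732 to 9028 TPM) and of regulatory T cells (2279 to 2474 TPM) were also lowest in replicate 1 and highest in replicate 4, while Foxp3 itself was lowest in replicate 4, at 1.58 TPM. The 10 cell cycle genes, all detected and none called, summed to 2772 to 2955 TPM, highest in replicate 3. The part of these values in the spread of Dapl1 was not tested.

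**Figure D5:**
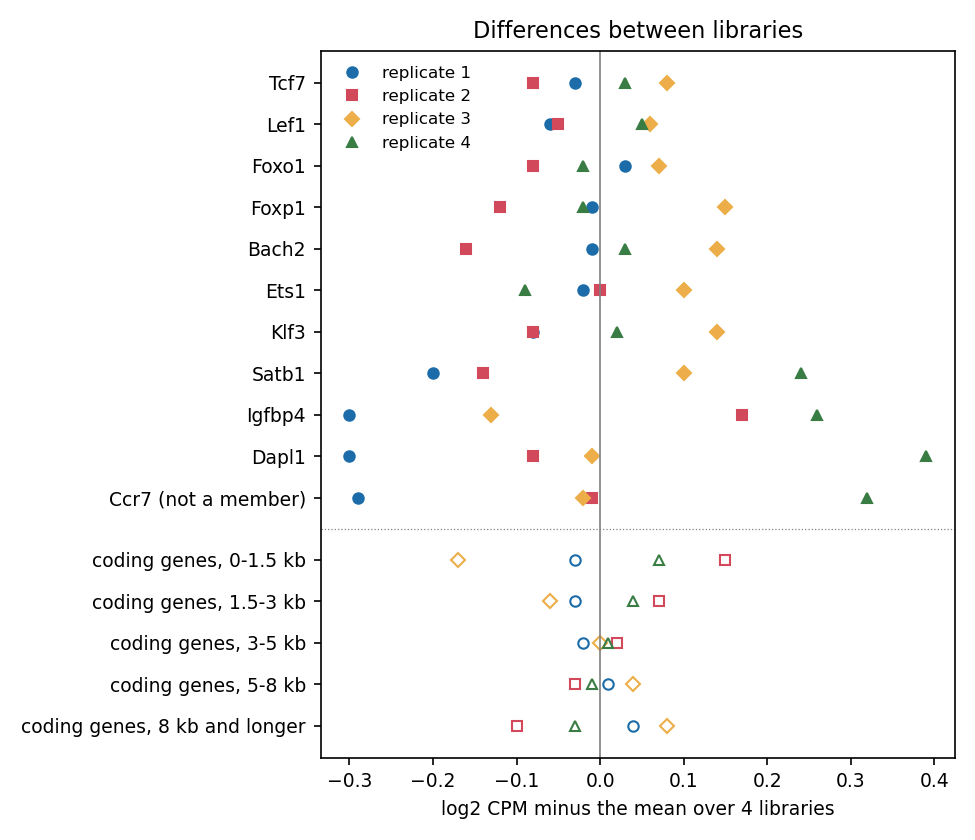
Deviation of log2 CPM from the gene's own mean over 4 libraries, for each member, for Ccr7 and for the median of protein-coding genes in 5 classes of exon length (open symbols). Most members are highest in replicate 3, as are long genes, whereas Dapl1 spans -0.30 in replicate 1 to 0.39 in replicate 4 and Ccr7 spans -0.29 to 0.32.

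Among 10994 other protein-coding genes with a mean TPM of at least 1, the 3 whose centred log2 CPM over the 4 libraries lay nearest to Dapl1 were Serpinb6b, Hsh2d and Ccr7. Their Euclidean distances were 0.09, 0.10 and 0.10 in log2 units. Serpinb6b, a serine protease inhibitor gene on chromosome 13, stood at 141, 150, 174 and 202 TPM in replicates 1 to 4. Hsh2d, an adaptor gene on chromosome 8, stood at 16.2, 18.2, 20.8 and 23.9 TPM. Ccr7 deviated by -0.29, -0.01, -0.02 and 0.32, close to Dapl1 in every library. None of these 3 was itself called (edgeR, adjusted p = 0.116, 0.909 and 0.528). Satb1 was number 62 in nearness, and Igfbp4 number 393. Only 4 libraries define these profiles, so the ranking is a description of them.

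Counts of these genes could also be affected by overlapping genes. The counting used strand, so antisense neighbours such as Bach2os (0 to 11 counts per library) and Gm43352 at Lef1 (177 to 338 counts) were kept apart. On the same strand, Foxp1 shared 300 exon bases with Gm20696 and 135 with Gm49348, and Satb1 shared 156 with Gm36931. Those 3 genes had at most 40 counts in a library, beside at least 15437 for Foxp1 and 15965 for Satb1. Fragments on shared bases may have been left out of both genes, so these counts do not give the size of any loss.

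The bases before annotated starts are shown for Dapl1, the only member that edgeR called variable, a call lost under some settings. They are also shown for Bach2, whose window held motifs of 2 of the members' factor classes. Both were chosen as examples after the motifs were seen. They are the 250 bases upstream of a RefSeq start (GRCm38.p6), 5′ to 3′ on the gene's strand, at chr2:59484403-59484652 (plus strand) for Dapl1 and chr4:32417185-32417434 (plus strand) for Bach2. The Bach2 window lies inside the gene's annotated span, before an internal start. Capitals mark the forkhead letters TGTTTAC or their reverse complement GTAAACA, the TCF/LEF letters CTTTGA or TCAAAG, and the ETS letters CCGGAAG or CTTCCGG.
Dapl1: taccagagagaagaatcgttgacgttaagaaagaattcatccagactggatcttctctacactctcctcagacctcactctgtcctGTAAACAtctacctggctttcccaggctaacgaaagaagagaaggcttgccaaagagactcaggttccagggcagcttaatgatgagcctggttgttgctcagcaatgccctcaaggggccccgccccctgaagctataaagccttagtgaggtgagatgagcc
Bach2: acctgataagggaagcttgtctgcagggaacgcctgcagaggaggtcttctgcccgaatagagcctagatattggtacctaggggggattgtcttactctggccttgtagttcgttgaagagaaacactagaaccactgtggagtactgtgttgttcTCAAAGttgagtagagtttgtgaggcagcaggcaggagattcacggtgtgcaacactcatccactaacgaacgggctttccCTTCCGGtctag
The Dapl1 window held GTAAACA and the Bach2 window held TCAAAG and CTTCCGG.

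RefSeq gave 19 such windows for 9 of the 10 genes, with 1 to 5 starts each, and Ets1 was not matched. Some windows of 1 gene overlap each other or exons of the same gene. Searched on both strands, the forkhead letters were in 1 of the 19 windows, against 3.17% of 32851 RefSeq windows. The TCF/LEF letters were in 3 (Bach2, Foxp1 and Lef1), against 13.8%, and the ETS letters in 2 (Bach2 and Tcf7), against 6.91%. The KLF letters CCCCACCC or GGGTGGGG were in 7 windows, of Foxp1, Klf3, Lef1, Satb1 and Tcf7, against 9.05%, and the AP-1 and BACH letters TGAGTCA or TGACTCA in none, against 4.46%. The KLF windows are not independent, as the Lef1 windows starting at 131110047 and 131110073 hold the same match. The Satb1 window with KLF letters lies wholly in exon bases of Satb1. GC content of the KLF windows ran from 50.8% to 78.4%, against a median of 52.4% over all windows, and was not matched in these shares. Such matches describe letters and do not show binding. The windows of Serpinb6b and Hsh2d, whose centred profiles over the libraries lay nearest to that of Dapl1, held none of these letters.

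The members were set beside other genes of the same program and of effector differentiation. All 16 other naive and stem-like genes were detected, and none was called variable. By edgeR 2 of the 16 had an unadjusted p under 0.05, against 7.01% of all genes tested. Led by Ccr7, Id3, which encodes an inhibitor of E proteins (572 ± 42.1 TPM), and Actn1 (147 ± 12.3 TPM), they had a median mean level of 32.9 TPM. Of 15 effector and opposing genes 10 were detected, and none of the 11 tested was called. By edgeR 3 of the 11 had an unadjusted p under 0.05. The median of the mean levels over all 15 was 3.92 TPM. The 5 not detected were Prdm1, Havcr2, Klrg1, Cx3cr1 and Maf. Tcf7 exceeded Id2, the E-protein inhibitor gene linked to effector fate, by 2.66 ± 0.14 and Prdm1 by 8.33 ± 0.11 (SD, n = 4) in log2(TPM + 1), in each of the 4 libraries, the latter understated by the pseudocount.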

How the data were processed

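RNA was sequenced from primary mouse T cells in 4 libraries of 1 group. The authors deposited unnormalized counts of fragments for each gene in 4 tables. Counting was by featureCounts 1.4.6-p4, per the file headers, on exons of GENCODE mouse release 13, both ends aligned, on the reverse strand, with no option for multimapping reads. The alignment's name includes STAR, and the labels give mm10. No version of the aligner is given in the sources used here.

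Symbols came from GENCODE release 21 by Ensembl identifier, matching 50376 of 50600 genes. TPM used these counts with the tables' exon lengths, and log2 values had a pseudocount of 1. With 1 group no quasi-likelihood contrast exists. Variability was tested in edgeR 4.0.16 (R 4.3.3) with TMM factors, filterByExpr and trended dispersion. A model of 1 mean per gene was fitted and its deviance referred to chi-square with 3 degrees of freedom, Benjamini-Hochberg adjusted over 13681 genes at 0.05. Gene pairs were compared by exact two-sided sign-flip tests. DESeq2 1.42.0 was an alternative. Python 3.11.15, numpy 2.4.6 and pandas 2.3.3 did the rest.

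The members and lists were chosen with earlier results of these data known. Named are the members, both genes of each pair, of each list its detected genes of highest mean TPM (up to 3), its undetected genes where 5 or fewer, any called gene, and for a called member its 3 nearest profiles. Marker lists are given by sums and defining genes, with the detected genes of the B-cell, myeloid, immature thymocyte and stromal and endothelial lists. Il7r, S1pr1, Tle3, Tle4, Foxo4, Maff, Foxp2, Tbx21, Eomes, Zeb2 and the overlapping genes were chosen after their values were seen. Results on some items are not reported here. Counting error covers counting alone.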

Additional observations from a re-analysis of the deposited data

Results flagged for a closer look

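Among 140 detected genes of the lists, 3 had 1 library far from the other 3, fewer than the 1 in 20 that chance gives, and none of the 10 members was among them. Gadd45a stood at 5.91 TPM in replicate 1, against 6.28 to 6.31 in the other libraries, a small difference (edgeR, unadjusted p = 0.974). Gzmb stood at 14.2 TPM in replicate 4, against 12.2 to 12.4. Ctla4 stood at 838 TPM in replicate 4, against 749 to 763.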

How the results depend on the processing

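No paired comparison of conditions was possible because the labels give 1 group. Genes were compared with each other within libraries. The number of members detected was 10, and that of gene pairs with 1 sign in every library 16, under every alternative run. The median of the members' mean TPM was 77.8 with all exons and 122 with principal transcript lengths. Of the 9 neighbours in the order of levels, 7 kept their order in every library. With principal transcript lengths the genes were ordered anew, and 5 of the 9 neighbours in that order did, partly other pairs. The edgeR test called 94 genes, 617 with a common dispersion, and 38 to 87 when each replicate was left out in turn, while DESeq2 marked 43 dispersion outliers. Of the members it called 1, and 0 with no filter on low counts (edgeR, 2 at an unadjusted p under 0.05), with a common dispersion (1 at an unadjusted p under 0.05) and as DESeq2 outliers. Leaving out each replicate gave 0 to 1. The cause of the differing calls was not tested. Fits without a replicate also had fewer libraries, and the fit with no filter had more genes. Pappa2 lost its call without replicate 2 (edgeR, adjusted p = 0.998). Levels of single genes rest on at least 519 counts per library for every member, so depth limits mainly relatives near 0, such as Prdm1 and Foxo6.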

Other observations

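The 15 effector and opposing genes spanned a wide range of levels. Irf4, induced by receptor signalling, stood at 673 ± 59.7 TPM, its partner Batf at 279 ± 30.6 and the hypoxia factor gene Hif1a at 198 ± 5.08 (SD, n = 4). These are the highest 3 of the list, whose median is 3.92 TPM. Tbx21, the T-box factor gene of Th1 cells, stood at 3.92 ± 0.869 TPM, Eomes at 3.45 ± 1.08 and Zeb2 at 1.44 ± 0.207, and Prdm1 and Maf were not detected.

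In the IGF axis around Igfbp4, 5 of 9 genes were detected and 1 was called. Pappa2, which encodes a protease of IGF-binding proteins, stood at 9.83, 4.77, 10.7 and 7.77 TPM in replicates 1 to 4, lowest in replicate 2 (edgeR, adjusted p = 0.000189). It was no longer called without that library (edgeR, adjusted p = 0.998). The related protease gene Pappa, whose product is known to cleave the protein encoded by Igfbp4, had 1 count in replicate 3 and 0 elsewhere. The most abundant of the axis were the receptor gene Igf2r (139 ± 19.7 TPM), Stc2 (26.1 ± 4.77 TPM) and the insulin receptor gene Insr (11.7 ± 1.30 TPM), while Stc1 was not detected and the ligand genes Igf1 and Igf2 had 0 to 10 counts per library.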
